A study of Homo sapiens with 12 samples.

Results

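The proteins of the spliceosomal small nuclear ribonucleoproteins (snRNPs), and the factors that build and mature these particles, were examined in 2 kinds of human neuron. The 44 genes were taken by symbol: the Sm, LSm and U snRNP proteins, the methylosome, and cap, export, import and maturation factors. All 44 were listed in both deposited tables, among 16406 genes in the iMN table and 19016 in the i3N table. The iMNs were motor neurons differentiated with small molecules from 1 donor-derived iPSC line that carries Td-Tomato under the HB9 promoter, and they were isolated by FACS on Td-Tomato. The i3Ns were glutamatergic neurons, labelled as cortical, made from H1 human embryonic stem cells through doxycycline-inducible NGN2. Every culture received lentivirus carrying an inducible shRNA, either against *SMN1* and *SMN2* (*SMN*-KD) or scrambled (SCR), with 3 libraries of rRNA-depleted total RNA per group and 12 libraries in 4 groups.

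The value used for each gene was the authors' mean normalized count over the 6 libraries of a cell type, called its level here. It pools the SCR and *SMN*-KD libraries, so it has no SD and no test, and the effect of the knockdown on these genes was not analysed here. Total counts per library are not given in the tables used. Because the tables were normalized separately, genes that differed between cell types were counted on shares of the summed level of the 44 genes. Levels and percentiles of both cell types are also given side by side, and each is on the scale of its own cell type. Cell type, stem cell line and differentiation protocol changed together and cannot be told apart, and in bulk RNA fewer cells of a type and less RNA per cell cannot be told apart either. A percentile is the percent of the 16093 genes listed in both tables that lie below a gene. Per kilobase of transcript it runs over the 15481 of them with a reference length, and per kilobase of coding sequence over those with a coding sequence.

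The 6 neuronal markers had a median percentile of 99.8 in both cell types. *MNX1*, which encodes HB9, lay at the 36.6th percentile in the sorted iMNs and at the 70.5th in the i3Ns, *ISL1* at the 64.1st and the 97th, and *ISL2* at the 18.0th and the 79.5th, so these transcription factor markers went against the motor neuron label of the iMNs. The acetylcholine transporter gene *SLC18A3* (78.4th and 66.2nd) and the choline transporter gene *SLC5A7* (93.3rd and 72.3rd) lay the other way. Of the glutamatergic markers, the transporter genes *SLC17A6* (41.7th in iMNs and 95.5th in i3Ns) and *SLC17A7* (15.3rd and 89.8th) were high in i3Ns, and the receptor gene *GRIN2B* (99.4th and 16.0th) was high in iMNs. The tables were assigned to cell types by the names under which they were deposited, and whether that assignment holds was not tested, so every comparison of iMNs with i3Ns rests on it. Among cortical markers, *TBR1*, *CUX2*, *BCL11B* and *EMX1* lay at the 65.2nd, 68.2nd, 29.0th and 16.7th percentile in i3Ns, all outside the top 25%, and *EMX1* was not listed in iMNs. Of 6 glial genes, *GFAP* and *AQP4* were listed in neither table and *S100B* in iMNs alone (11.1st percentile), while *OLIG1* (16.4th in iMNs and 26.4th in i3Ns), *OLIG2* (8.1st and 34.3rd) and *MBP* (32.8th and 50.9th) were listed in both. Of 3 pluripotency genes, *POU5F1* and *NANOG* were listed in i3Ns alone, at the 6.5th and 3.4th percentile, and *LIN28A* lay at the 28.3rd in iMNs and the 82.9th in i3Ns.

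Pre-mRNA splicing depends on the U1, U2, U4, U5 and U6 snRNPs, each a small nuclear RNA with its proteins. After export to the cytoplasm, U1, U2, U4 and U5 RNAs receive a ring of Sm proteins that the SMN complex places on them, their cap is hypermethylated, and the particle returns to the nucleus, where Cajal bodies host further steps. U6 RNA stays mostly nuclear and carries an LSm ring instead. Spinal muscular atrophy follows from too little SMN, so the supply of SMN's protein clients in motor neurons is of interest in this disease.

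The Sm proteins SmB/B', SmD1 and SmD3 end in tails where glycine is followed by arginine. PRMT5 dimethylates arginines there, and the SMN Tudor domain binds the methylated tails. The last 120 coding bases before the stop codon of these genes are shown, with those of *SNRPD2*, whose protein lacks such a tail. The SMN complex places the whole Sm ring, so the stretches do not mark which Sm proteins it handles. They were read from the GENCODE release 44 canonical transcripts on GRCh38 (hg38) and run 5′ to 3′ on the coding strand. Capitals mark glycine codons directly followed by arginine codons, each pair in full. The reverse order, arginine before glycine, is not marked and also occurs, in the *SNRPD2* stretch as well. The capitals are therefore no map of methylated arginines. The stretches lie within chr20:2461932-2462747 (minus strand) for *SNRPB*, chr18:21623894-21629135 (plus) for *SNRPD1*, chr19:45687556-45687675 (minus) for *SNRPD2* and chr22:24568116-24571974 (plus) for *SNRPD3*. The longer spans hold introns that are not printed.
SNRPB: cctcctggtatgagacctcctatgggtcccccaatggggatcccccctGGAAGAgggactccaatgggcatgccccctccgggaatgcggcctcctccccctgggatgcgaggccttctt
SNRPD1: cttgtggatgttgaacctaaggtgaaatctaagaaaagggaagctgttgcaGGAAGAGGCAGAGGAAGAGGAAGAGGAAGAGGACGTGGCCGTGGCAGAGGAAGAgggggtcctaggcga
SNRPD2: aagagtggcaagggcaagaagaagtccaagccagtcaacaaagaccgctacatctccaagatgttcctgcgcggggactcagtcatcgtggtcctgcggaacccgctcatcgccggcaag
SNRPD3: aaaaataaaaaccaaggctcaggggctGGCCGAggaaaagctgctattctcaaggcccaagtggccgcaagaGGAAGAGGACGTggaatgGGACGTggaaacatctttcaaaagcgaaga

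The *SNRPD1* stretch held 9 glycine-arginine codon pairs in 1 unbroken run. That of *SNRPD3* held 4, that of *SNRPB* 1 and that of *SNRPD2* 0. Over whole coding sequences, *SNRPB* had 7 pairs, its paralog *SNRPN* 6 and *SNRPD3* 5, whereas *SNRPD2*, *SNRPE* and *SNRPG* had 1 each and *SNRPF* had 0. Among the LSm genes, *LSM4* had 8 pairs, all in the second part of its coding sequence, *LSM1*, *LSM3*, *LSM5*, *LSM6*, *LSM7* and *LSM8* had 1 each, and *LSM2* had 0. *LSM11* of the U7 snRNP had 9 and *LSM10* had 4. Arginine codons followed by glycine codons were not counted, so these counts do not number the arginines that PRMT5 can methylate.

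Most of the 44 genes, though not all, lay above the median level in both neuron types. The median level of the 44 was 1573 in iMNs and 1657 in i3Ns, against 906 and 905 for the genes listed in both tables. All 44 had a level of at least 100 in both. In iMNs 34 lay above the median of the genes listed in both tables, in i3Ns 32, and in both 31. The lowest was *TOE1* in both cell types, at the 33.1st and 35.2nd percentile. Together the 44 genes held 0.271% of the summed level of the iMN table and 0.262% of the i3N table. The top 25% of the genes listed in both tables held 10 of the 44 in each table, 8 of them in both. In each table that share of the 44 was just under 25%, so they were not over-represented there by undivided level.

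Counts rise with transcript length, and these genes were short, with a median reference transcript of 2157.5 bases against 3267 over 15481 genes with a length. Divided by transcript length, 24 of the 44 lay in the top 25% in iMNs and 23 in i3Ns, 21 of them in both. By coding length the counts were 23 and 24. Reference transcripts of this group ran from 452 bases (*SNRPF*) to 12384 (*LSM8*), so the order of single genes can depend on which length was used.

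**Figure D1:**
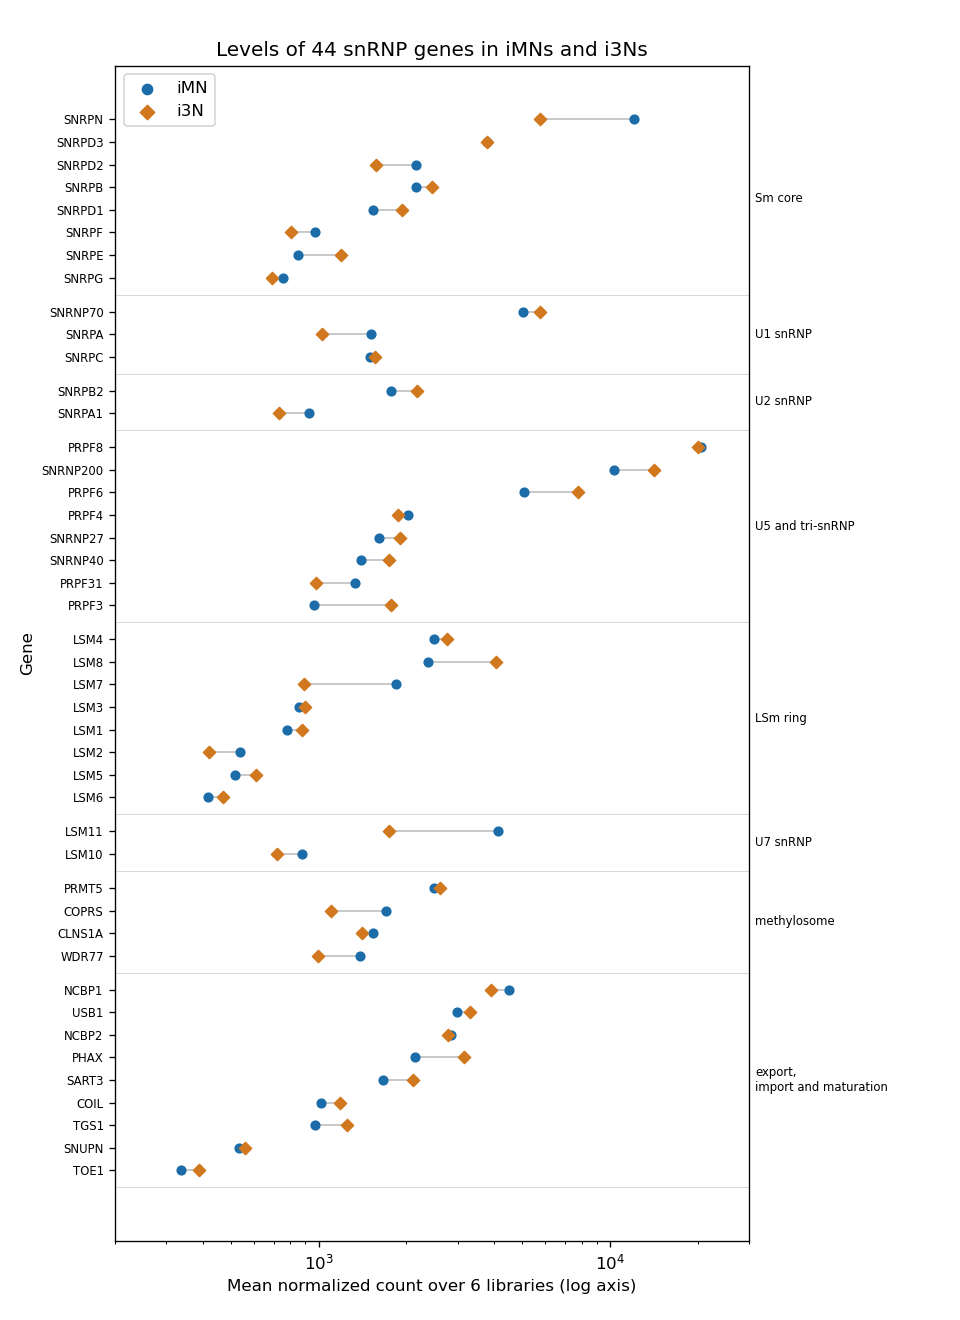
Level of each of the 44 genes (mean normalized count over 6 libraries, log axis) in iMNs (circles) and i3Ns (diamonds), grouped by role, with a line joining the values of a gene. PRPF8 is highest at 20572 and 20091, TOE1 lowest at 337 and 387, and the widest gaps are those of LSM11, SNRPN and LSM7. The tables were normalized separately and each point pools SCR and SMN-KD libraries, so no error bar is drawn.

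The Sm proteins form the 7-membered ring on the U snRNAs, where SmN, encoded by *SNRPN*, can take the place of SmB/B'. *SNRPN* lies in the imprinted region of chromosome 15 (ENSG00000128739, chr15:24823637-24978723, plus strand) and is known for its high expression in neurons. It was the second highest of the 44 genes in iMNs, at a level of 12088 and the 96.4th percentile, and the fourth highest in i3Ns, at 5767 and the 88.3rd percentile. *SNRPB* was at 2153 and 2444. Per kilobase of transcript, *SNRPN* exceeded *SNRPB* 4.14 times in iMNs and 1.74 times in i3Ns. The order held with coding length, at 5.40 and 2.27 times, and with no division by length, at 5.61 and 2.36 times. The same lengths were used for both cell types, so they cancel between them. The smaller excess in i3Ns is therefore the same under any choice by arithmetic alone. Whether the cell types use the same transcripts was not measured. *SNURF* and ENSG00000214265 share exons with *SNRPN* on the same strand and were listed at 113 and 911 in iMNs and at 79.7 and 963 in i3Ns, so how reads were divided among them, and between *SNRPN* and its close paralog *SNRPB*, is uncertain.

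The 7 other Sm genes spanned a 13.2-fold range per kilobase of transcript in iMNs and 7.68-fold in i3Ns, with *SNRPD2* highest and *SNRPD1* lowest in both. That low place came with a long reference transcript. *SNRPD1* has 4858 bases of transcript around 357 of coding sequence, and per kilobase of coding sequence it stood at the 88.5th percentile in iMNs and the 90.8th in i3Ns, against the 51.6th and 56.3rd by transcript. By coding length *SNRPD3*, at 9982 and 9984 per kilobase, was the highest of the 7 in both cell types. The undivided levels of *SNRPD3* were 3773 and 3774. *SNRPE* had 852 and 1195, *SNRPF* 968 and 805, and *SNRPG* 752 and 692. These are the partners that come together as a trimer before the ring closes, and by undivided level each lay between the 44.5th and 55.9th percentile of the genes listed in both tables. By coding length they lay between the 82.5th and 88.3rd. *SNRPE*, *SNRPF* and *SNRPG* have 10, 4 and 20 annotated pseudogenes by name, none of which was listed in iMNs and 1 of which, that of *SNRPE*, was listed in i3Ns.

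**Figure D2:**
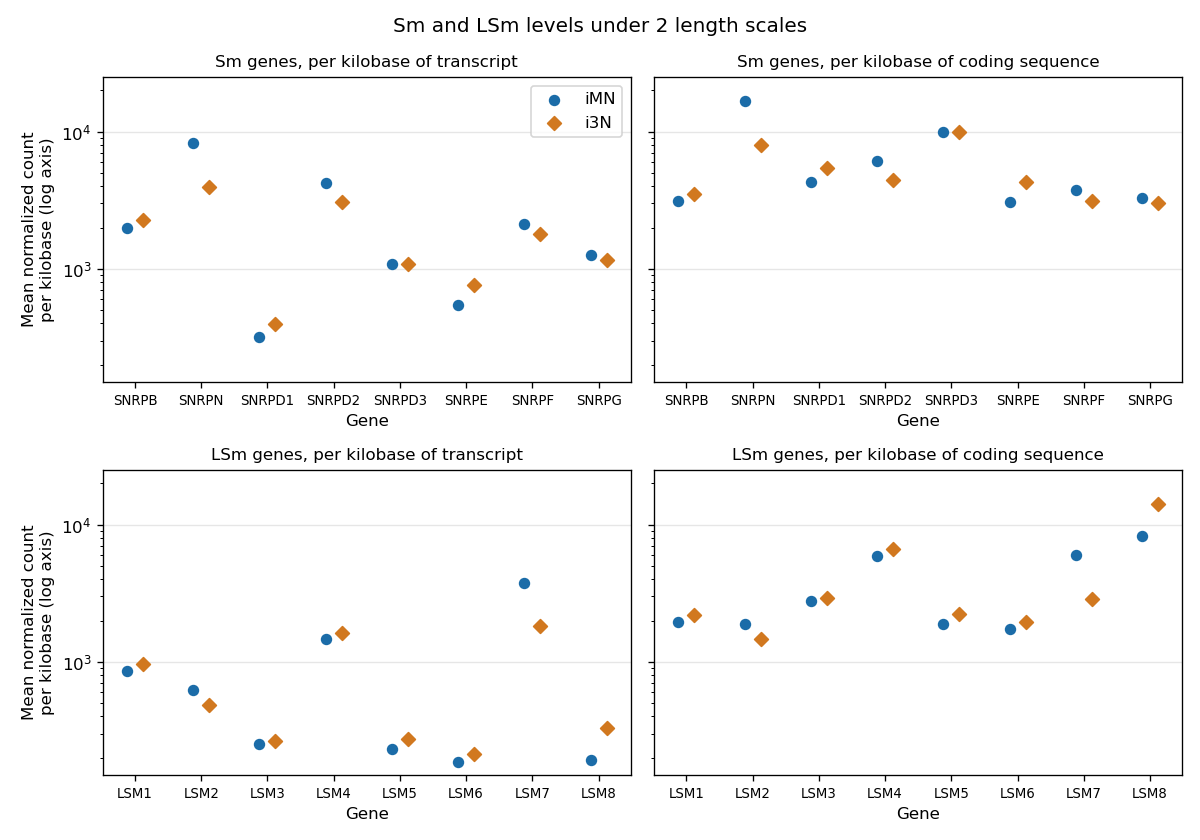
Level per kilobase (log axis) of the 8 Sm genes (top) and 8 LSm genes (bottom) in iMNs (circles) and i3Ns (diamonds), divided by transcript length (left) or coding length (right). SNRPN stands above SNRPB in all 4 comparisons. SNRPD1 is the lowest Sm gene by transcript length and moves to a middle place by coding length, where LSM8 is the highest LSm gene. Each point is 1 pooled mean.

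The U1 and U2 proteins recognise the splice sites. Among U1 proteins, *SNRNP70*, which binds the first stem-loop of U1 RNA, was highest and *SNRPA* lowest in both cell types under either length. *SNRNP70* had a level of 5023 in iMNs and 5755 in i3Ns, *SNRPC*, which helps U1 engage the 5′ splice site, had 1497 and 1556, and *SNRPA* had 1512 and 1030. The U2 pair was led by *SNRPB2* when undivided, with 1772 and 2176 against 927 and 729 for *SNRPA1*. Per kilobase of transcript *SNRPA1* stood above *SNRPB2* in iMNs (882 and 735) and below it in i3Ns (693 and 902), while by coding length *SNRPB2* was higher in both. *PCSK6* shares exons with *SNRPA1* on the same strand and was listed at 585 in iMNs and 151 in i3Ns. How reads were divided between *PCSK6* and *SNRPA1* is uncertain.

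The U5 and tri-snRNP proteins held the largest share of the summed level by role, 36.9% in iMNs and 42.7% in i3Ns. *PRPF8*, the scaffold of the catalytic center, was the highest gene of all 44, with 20572 and 20091. *SNRNP200*, the helicase that unwinds U4 from U6, had 10304 and 14226, and *PRPF6*, which bridges U5 and U4/U6, had 5085 and 7743. These are long transcripts. Per kilobase of transcript *PRPF8* remained highest within this role, at 2826 and 2760, whereas by coding length *SNRNP27* was highest, at 3453 and 4102. The U4/U6 proteins were lower, with *PRPF4* at 2030 and 1875, *PRPF31* at 1332 and 982, and *PRPF3* at 966 and 1765. Variants in *PRPF8*, *PRPF3*, *PRPF6*, *PRPF31* and *SNRNP200* are known from retinitis pigmentosa. *PRPF8* had a further identifier off the main assembly, and its main one held 88.2% of the symbol's level in iMNs and 78.1% in i3Ns. *MXD1* shares exons with *SNRNP27* on the same strand and was listed at 2328 in iMNs and 2548 in i3Ns, so the division of reads between them is uncertain.

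LSm2 to LSm7 form a ring with LSm8 on U6 RNA in the nucleus, or with LSm1 in the cytoplasm, where that ring promotes mRNA decay. By transcript length they were lower as a role than the Sm genes, with a median of 440 per kilobase in iMNs and 408 in i3Ns against 1628 and 1473. By undivided level their median percentile was 47.7 in iMNs and 49.6 in i3Ns, against 66.2 and 64.4 for the Sm genes. The role medians were not compared by coding length, and the size of the gap can depend on the length used. *LSM7* was highest by transcript length, at 3767 and 1817, and *LSM6* lowest, at 187 and 211. By coding length *LSM8* was highest, at 8227 and 14098, and the lowest were *LSM6* in iMNs, at 1738, and *LSM2* in i3Ns, at 1470. *LSM8* was the only LSm gene in the top 25% by undivided level, in i3Ns, with 4060 (82.0th percentile) against 2369 in iMNs (72.4th). *LSM1* had 777 and 877. Which of the pair is higher turned with length. Per kilobase of transcript *LSM1* exceeded *LSM8* 4.48 times in iMNs and 2.95 times in i3Ns, since *LSM8* has 12384 bases of transcript for 288 of coding sequence, but the ratio was 0.237 and 0.156 by coding length and 0.328 and 0.216 undivided. With the same reference lengths in both cell types, the ratio was lower in i3Ns than in iMNs under any choice, by arithmetic alone. Which transcripts of *LSM8* each cell type uses was not measured. *LSM2* also carries identifiers off the main assembly, and the main one held 81.2% of its level in iMNs and 59.1% in i3Ns. With all identifiers summed, *LSM2* had a level of 662 in iMNs and 708 in i3Ns, in place of 538 and 419. The lowest LSm gene by coding length was then *LSM6* in i3Ns as well.

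*LSM10* and *LSM11* replace SmD1 and SmD2 in the U7 snRNP, which processes the ends of replication-dependent histone mRNAs. *LSM11* had 4129 in iMNs and 1743 in i3Ns, from the 83.5th to the 64.4th percentile, and *LSM10* 879 and 717. Per kilobase of transcript *LSM10* was the higher in both, 1.63 times in iMNs and 3.14 times in i3Ns, but by coding length *LSM11* was 1.61 times *LSM10* in iMNs and 0.831 times in i3Ns.

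The methylosome prepares Sm tails for SMN. *PRMT5*, its methyltransferase, had 2494 and 2603, its partner *WDR77* 1389 and 991, and *CLNS1A* (pICln), which chaperones Sm proteins, 1536 and 1408. *COPRS*, a PRMT5 cofactor best known in chromatin, had 1698 and 1103 and was the highest of the 4 per kilobase under either length in both cell types, by a narrow margin over *CLNS1A* in i3Ns by coding length (1998 and 1980). *PRMT5* exceeded *WDR77* 1.91 times per kilobase of transcript in iMNs and 2.80 times in i3Ns. By coding length the ratio was 0.964 in iMNs and 1.41 in i3Ns. Opposite-strand exons of *ATP5PB*, listed at 4390 and 4908, overlap those of *WDR77*, and the tables do not tell how strand was used in quantification.

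Among the transport and maturation factors, the cap-binding complex genes were high, *NCBP1* at 4516 and 3898 and *NCBP2* at 2836 and 2783. Per kilobase that order turned, with *NCBP1* at 0.671 and 0.591 times *NCBP2* by transcript length and 0.314 and 0.277 times by coding length. *PHAX*, the adaptor that hands capped U snRNAs to the exporter, had 2140 and 3160. *TGS1*, which makes the trimethylguanosine cap, had 973 and 1251, and *SNUPN*, the import receptor for that cap, 533 and 557. *COIL*, the scaffold of Cajal bodies, had 1015 and 1184. Of the factors that finish or recycle the RNAs, *USB1*, which trims the U6 end, had 2977 and 3305, *SART3*, which reanneals U4 with U6, 1660 and 2101, and *TOE1*, the exonuclease that trims snRNA ends, 337 and 387. Their percentiles thus ran from the 33.1st to the 85.1st in iMNs and from the 35.2nd to the 81.3rd in i3Ns, with *TOE1* and *NCBP1* at the ends in both. *TOE1* was lowest of these 9 factors per kilobase under either length as well.

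Across the 44 genes, levels in iMNs and i3Ns ranked much alike (Spearman's rho 0.91, Pearson's r of log2 levels 0.93, n = 44 genes), as they did over all genes listed in both tables (0.92 and 0.91, n = 16093 genes). The points share 1 pooled mean per table and are not replicates. The summed level of the 44 in i3Ns was 1.01 times that in iMNs, so shares followed levels closely, and the median ratio over the genes listed in both tables was 1.05.

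The share of a gene differed by over 1.5 times between the cell types for 7 of the 44 and by less for 37. The share was higher in i3Ns for 3, *PRPF3* (0.82% of the summed level in iMNs and 1.497% in i3Ns, 1.82 times), *LSM8* (2.02% and 3.44%, 1.703 times) and *PRPF6* (4.34% and 6.57%, 1.51 times). On the same scale 3450 of the 16093 genes listed in both tables (21.4%) were higher in i3Ns by that margin, or 18.5% of those with a level of at least 100 in both. The share was higher in iMNs for 4, *LSM11* (3.52% and 1.48%, 2.38 times), *SNRPN* (10.3% and 4.89%, 2.11 times), *LSM7* (1.58% and 0.76%, 2.09 times) and *COPRS* (1.45% and 0.94%, 1.55 times), against 21.9% of all genes and 15.9% of those of at least 100. Both counts were below these background shares, and no test of a single gene is possible with 1 mean per cell type. *PRPF6* lay just past the margin and *PHAX* (1.47 times, higher in i3Ns) and *SNRPA* (1.48 times, higher in iMNs) just inside it. With tables scaled by the median ratio instead, *PRPF6* fell inside at 1.45 and *SNRPA* passed it, giving 2 and 5.

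**Figure D3:**
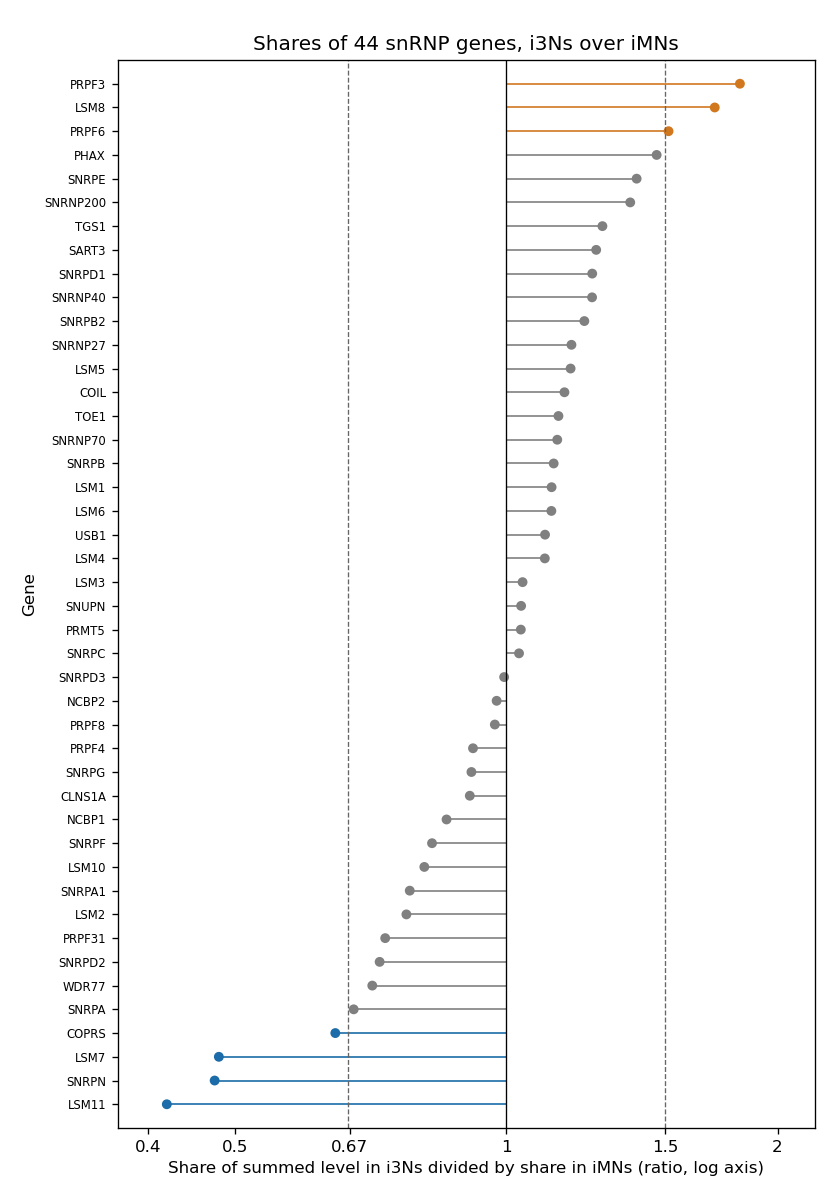
Share of the summed level of the 44 genes in i3Ns divided by the share in iMNs, for each gene in order (log axis). Dashed lines mark 1.5 times in either direction. PRPF3, LSM8 and PRPF6 lie past the line on the i3N side, LSM11, SNRPN, LSM7 and COPRS on the iMN side, and 37 genes lie between. Each point rests on 1 pooled mean per cell type and has no error bar.

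By role, the Sm genes held 20.7% of the summed level in iMNs and 15.4% in i3Ns. Without *SNRPN* the other 7 held 10.4% and 10.5%. The U7 pair held 4.27% and 2.09%, and *LSM11* made up most of both values. The U1 proteins held 6.85% and 7.07%, the LSm genes 8.36% and 9.31%, the methylosome 6.07% and 5.18%, and the transport and maturation factors 14.5% and 15.8%. Within the last group no gene passed the 1.5-fold margin, with ratios from 0.86 to 1.47.

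All 18 further U2 and tri-snRNP proteins were listed in both tables. By undivided level they had a median percentile of 71.8 in iMNs and 76.2 in i3Ns, with 8 and 10 of them in the top 25%. Per kilobase of transcript the median percentile was 81.7 in both cell types, with 11 and 15 in the top 25%. *SF3B1*, the U2 subunit that holds the branch site, had 9185 and 17208, *SF3B3* 9698 and 10353, and *EFTUD2*, the U5 GTPase, 4878 and 4224, while the cyclophilin gene *PPIH* was lowest at 334 and 342. By undivided level the 10 genes of the SMN complex, which places the Sm ring, had a median percentile of 39.3 in iMNs and 41.8 in i3Ns. Only *STRAP* was in the top 25% of either table. Per kilobase of transcript the median percentile of the 10 was 49.3 in both cell types, near the middle of the genes ranked. *SMN1* and *SMN2* were listed at 477 and 460 in iMNs and 300 and 409 in i3Ns. These means include the knockdown libraries, so they do not give the level in untreated neurons and do not check the knockdown, and reads of this near-identical pair cannot be divided with certainty.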

How the data were processed

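The study sequenced rRNA-depleted total RNA as paired-end reads from 12 libraries, 3 in each of 4 groups. Per the labels and the study's methods, the authors used fastp for trimming, Salmon for transcript abundance, DESeq2 for the group comparison, and the hg38 build. Versions, transcript annotation, strand setting and filter are not given in the sources used here. The 2 deposited tables, 1 per cell type, hold for each gene a signal value, which is the authors' mean over 6 libraries of counts divided by size factors. Their other columns hold the authors' own comparison of *SMN*-KD with SCR (fold change, its error, p-values) and were not used. With 1 pooled mean per gene and no total counts, no error, depth or test could be given, and the planned count test of *SMN*-KD against SCR was not run. The number of unused columns of single samples was 0.

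Genes were matched on symbol, taking the identifier with the highest mean where 2 symbols had several. Percentiles of undivided levels ran over the 16093 identifiers in both tables. Those per kilobase ran over the identifiers among them with a transcript length (15481) or with a coding length. Lengths, exons and sequences came from the canonical transcripts of GENCODE release 44 (GRCh38), which may differ from the annotation the authors used. A share is a gene's part of the summed level of the 44 genes. The named genes were all 44, with values outside them given for listed pathway genes and markers, some of which are not reported here. The genes and lists were chosen with earlier results of these data known. Alternatives changed the genes ranked, a floor of 100, identifiers, length and scaling. Python 3.11.15, pandas 2.3.3, numpy 2.4.6 and matplotlib 3.10.9 were used.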

Additional observations from a re-analysis of the deposited data

How the results depend on the processing

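The count of the 44 genes in the top 25% was within 1.5 times of the reported 10 in each cell type when ranked over all genes of a table (10 in iMNs, 14 in i3Ns), over genes with a level of at least 100 (8 and 8) or with identifiers summed per symbol (10 and 10). It rose to 24 in iMNs and 23 in i3Ns per kilobase of transcript, and to 23 and 24 per kilobase of coding sequence, an alternative chosen after seeing the data. The number whose share differed by over 1.5 times was 7 under each scaling, with 3 higher in i3Ns and 4 in iMNs by share, and 2 and 5 by median ratio or with identifiers summed. The *SNRPN* to *SNRPB* ratio moved from 4.14 to 5.61 (no length) and 5.40 (coding length) in iMNs, and from 1.74 to 2.36 and 2.27 in i3Ns. The *LSM1* to *LSM8* ratio turned from 4.48 to 0.328 (no length) and 0.237 (coding length) in iMNs, and from 2.95 to 0.216 and 0.156 in i3Ns, because *LSM8* has a long reference transcript.

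No paired analysis was possible because the tables used hold 1 mean over all libraries of a cell type. For the same reason the alternatives for *SMN*-KD against SCR (a second tool, no filter, the replicate block and leaving out each replicate) were not run. Replicate error is unknown, so differences between cell types were not set against it. Exons of 13 of the 44 genes overlap another listed gene, 5 on the same strand and 8 on the opposite one, and 16 have named pseudogenes, 69 in all, of which 0 were listed in iMNs and 3 in i3Ns.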
